A study of Sus scrofa with 57 samples.

Results

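Imprinted genes are genes that are normally read from either the maternal or the paternal copy, and a control region that sets which copy is used is methylated on either the maternal or the paternal copy. Such a region is expected to lie near 50% in a mixture of both copies, since bisulfite reads do not separate the copies. Several imprinted genes act on growth, insulin signalling and fat storage. The genes described here were IGF2, IGF2R, GRB10, GNAS, PLAGL1, MEST and DLK1, measured in isolated mature adipocytes of the retroperitoneal depot. Which copy of each gene was read in these cells was not measured. They were chosen as a list of symbols by a rule that uses no measured value, although earlier results of these data were known when the list was made. These 7 symbols matched 9 of the 25285 gene identifiers in the expression tables, because IGF2R and DLK1 each have 2 entries. All DNA regions in the deposited methylation tables that lay in these loci, or within 50000 bases of them, were added. These were 11 of 7401 mDNAcap regions, 11 of 2416 regions in the wider RRBS table and 1 of 610 regions in the stricter RRBS table.

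The pigs were F2 animals of a Duroc-Göttingen minipig inter-cross, taken from the lean and obese ends of that population and kept in the same environment with free access to food. Ages at slaughter differed between pigs and were not used here. RNA came from 5 lean pigs and 5 obese pigs, all male, named lean pig 1 to 5 and obese pig 1 to 5 in the order of their deposition. Obese pig 5 had 2 libraries, which were averaged and counted as 1 pig. A second label of the later library names another pig number, so its identity rests on its title. DNA was labelled as coming from 10 lean pigs (8 male and 2 female) and 13 obese pigs (8 male and 5 female) in each methylation assay. In the mDNAcap table the header places 1 pig labelled obese in the lean set and leaves out another pig labelled obese. Each set there holds 11 libraries. The RRBS group means name no pigs, so how these pigs were grouped there is unknown. The cells were floated off after collagenase digestion, so each value is an average over all cells in a fraction.

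RNA is given as FPKM, fragments scaled to transcript length and to the number of mapped fragments, divided here by a size factor for each library of 0.693 to 1.23. The tables hold no read totals, so the number of fragments behind a value is unknown. Between 8950 and 10291 genes per library had an FPKM of at least 1. Of 14 adipocyte markers, 7 were found by symbol, and their summed FPKM was 1007 to 1144 in lean and 1097 to 1257 in obese pigs. ADIPOQ, FABP4 and LPL were not among those 7. The sum of 14 preadipocyte and fibroblast markers was 267 to 736 in lean and 274 to 657 in obese pigs, most of it COL3A1. Of the 11 of these markers that were tested, 10 had a negative log2 difference, obese minus lean, with a median of -0.53, although none passed the limma test described below and 2 (FN1 and COL6A3, named after their values were seen) had an unadjusted p under 0.05. Over all tested genes 49.7% had a positive difference and 20.8% an unadjusted limma p under 0.05. Of the 7 adipocyte markers, 5 had a positive difference and 2 a negative one, with a median of 0.22. None of them passed either, and 2 (28.6%, LEP and CEBPA, named after their values were seen) had an unadjusted limma p under 0.05. For LEP the lean and obese pigs did not overlap, with 28.9 ± 20.9 FPKM in lean and 118 ± 28.8 in obese pigs. Such non-overlap was found in 4.16% of all tested genes. The part of these differences in the values below was not tested. Leukocyte markers summed to 3.08 to 6.21 over all pigs with CD163 listed at 0, endothelial markers to 1.48 to 13.3, erythroid markers to 15.6 to 99.2, muscle markers to 0.188 to 1.02 and mesothelial markers to 0.0312 to 0.256.

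No imprinted gene of the list passed the test between lean and obese pigs. The test was limma on log2(scaled FPKM + 1), with Benjamini-Hochberg adjustment over the 10192 genes with a mean of at least 1. Only 1 of these genes (0.00981%) passed an adjusted p of 0.05, a count that was 165 without lean pig 1 and 0 to 178 over all alternatives, and 2123 (20.8%) had an unadjusted p under 0.05. Lean and obese pigs did not overlap in 424 genes (4.16%), and none of these was a member. In limma none of the 4 member entries above the filter had an unadjusted p under 0.05. The entries for GNAS, GRB10 and IGF2R passed the filter, and those for PLAGL1, MEST, IGF2 and DLK1 did not. In a mixture of cells, fewer cells of a type and less RNA per cell cannot be told apart, which applies to every RNA value here.

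GNAS, the alpha subunit of the stimulatory G protein that couples hormone receptors to cAMP production, was by far the most abundant member. Its mean of 248 FPKM was above that of 96.8% of tested genes. The lean pigs had 294 in lean pig 1, 234 in lean pig 2, 218 in lean pig 3, 252 in lean pig 4 and 284 in lean pig 5. The obese pigs had 261 in obese pig 1, 247 in obese pig 2, 217 in obese pig 3, 259 in obese pig 4 and 209 in obese pig 5. The groups overlapped, with lean pigs 1 and 5 above every obese pig, obese pigs 3 and 5 below every lean pig and the other 6 pigs in between. The means were 257 ± 32.4 in lean and 239 ± 24.1 in obese pigs (SD, n = 5 each). The log2 difference, obese minus lean, was -0.10 (SE 0.14, 95% interval -0.40 to 0.20, limma adjusted p = 0.693). A two-sided exact permutation test of the same means gave p = 0.341. The 2 libraries of obese pig 5 gave 210 and 207 after scaling, against 213 and 143 as deposited. Over the 10 pigs the Pearson r of GNAS was 0.58 with the preadipocyte and fibroblast marker sum and 0.68 with the erythroid sum (log2 values from the same libraries). These were its 2 highest values, picked after all marker sums were seen. With the other sums r ran from -0.47 (muscle) to 0.31 (leukocyte). For GRB10 it ran from -0.52 (muscle) to 0.34 (leukocyte). The highest value for the IGF2R entries was with the erythroid sum (0.42 and 0.36). The part of any cell type in the member values was not tested.

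GRB10, an adaptor protein that binds the insulin and IGF1 receptors and restrains their signalling, split the lean pigs. Lean pigs 3, 4 and 5 had 5.97, 5.70 and 6.51 FPKM, whereas lean pigs 1 and 2 had 1.56 and 1.70. The obese pigs had 3.96 in obese pig 1, 3.56 in obese pig 2, 0.98 in obese pig 3, 1.80 in obese pig 4 and 2.44 in obese pig 5. All obese pigs thus lay below the 3 higher lean pigs, and obese pig 3 was the only obese pig below both low lean pigs. The means were 4.29 ± 2.44 in lean and 2.55 ± 1.23 in obese pigs (SD, n = 5 each). The log2 difference was -0.50 (SE 0.38, 95% interval -1.33 to 0.33, limma adjusted p = 0.465), and the exact permutation test gave p = 0.198. The spread among the lean pigs was therefore larger than the difference between the groups.

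IGF2R, the receptor that takes up IGF2 for degradation and sorts mannose 6-phosphate tagged enzymes to lysosomes, had 2 entries under the name M6P/IGF2R. RefSeq on the later build Sscrofa11.1 lists a single IGF2R gene, and whether both entries are pieces of it on Sscrofa10.2 was not tested. The shorter entry (ENSSSCG00000004042, entry 1) had 4.45, 4.42, 2.15, 2.07 and 3.44 FPKM in lean pigs 1 to 5, in order. In obese pigs 1 to 5, in order, it had 6.33, 3.12, 3.93, 4.10 and 6.03 FPKM. The highest values were in obese pigs 1 and 5 and the lowest in lean pigs 3 and 4, with the other pigs mixed. The longer entry (ENSSSCG00000004044, entry 2) had 5.39, 6.45, 2.83, 2.23 and 3.73 FPKM in the same lean pigs. In the obese pigs, in the same order, it had 8.18, 3.31, 4.91, 5.09 and 6.87 FPKM. Both entries ordered the pigs in nearly the same way, with a Pearson r of 0.97 between their log2 values over 10 pigs.

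The mean of the shorter IGF2R entry was 3.31 ± 1.17 in lean and 4.70 ± 1.40 in obese pigs (SD, n = 5 each), a log2 difference of 0.42 (SE 0.22, 95% interval -0.07 to 0.90, limma adjusted p = 0.294). The longer entry had means of 4.13 ± 1.76 and 5.67 ± 1.88, a log2 difference of 0.40 (SE 0.26, 95% interval -0.18 to 0.98, limma adjusted p = 0.394). Exact permutation tests gave p = 0.127 and p = 0.222. Lean pigs 1 and 2, low for GRB10, were the lean pigs with the most IGF2R. Across the 10 pigs the r between GRB10 and the IGF2R entries was -0.52 and -0.57, a description of pigs whose values come from the same libraries.

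IGF2, the growth factor ligand, was listed at 0 in 9 of the 11 libraries, including all obese ones. Lean pig 1 had 1.13 and lean pig 5 had 0.830 FPKM as deposited, and the lower bound that cufflinks gave for both was 0. The exact permutation test gave p = 0.444. Its entry lies on an unplaced scaffold of 2416 bases, so no more than that length of the gene could be counted. DLK1, the membrane ligand of preadipocytes that holds back fat cell differentiation, was listed at 0 in all 11 libraries for both of its entries, and no fold was computed.

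PLAGL1, a zinc finger transcription factor, had low values. The lean pigs had 0.196, 0.287, 0.410, 0.237 and 0.457 FPKM (lean pigs 1 to 5, in order). The obese pigs had 0.547, 0.0944, 0.130, 0.222 and 0.194 FPKM (obese pigs 1 to 5, in order). Obese pig 1 was above all other pigs, and the other obese pigs lay in or below the lower part of the lean range. The means were 0.317 ± 0.112 and 0.237 ± 0.180 FPKM (SD, n = 5 each), and the exact permutation test gave p = 0.397. Without obese pig 1 the exact permutation p was 0.0317 (unadjusted) with lean higher, and without any other single pig it was 0.286 to 0.667. Obese pig 1 was singled out after its high value was seen, so the lower p cannot count as a result. It shows only that the comparison depends on a single pig.

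MEST, a hydrolase-like protein linked to fat cell enlargement, had values near 0 in every pig. The lean pigs had 0.00975, 0.00646, 0.0138, 0.0175 and 0.0242 FPKM (lean pigs 1 to 5, in order). The obese pigs had 4.15e-09, 0.0127, 0.00512, 7.61e-09 and 0.00313 FPKM (obese pigs 1 to 5, in order). The obese pigs were on the whole lower, but obese pig 2 lay inside the lean range. The cufflinks lower bound was 0 in every library. The exact permutation test gave p = 0.0317, unadjusted, among 7 such tests on the member entries, and the smallest p this design allows is 0.00794. Leaving out single pigs gave p between 0.0159 and 0.0635, and FPKM as deposited gave p = 0.0635, so the call did not hold.

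**Figure D1:**
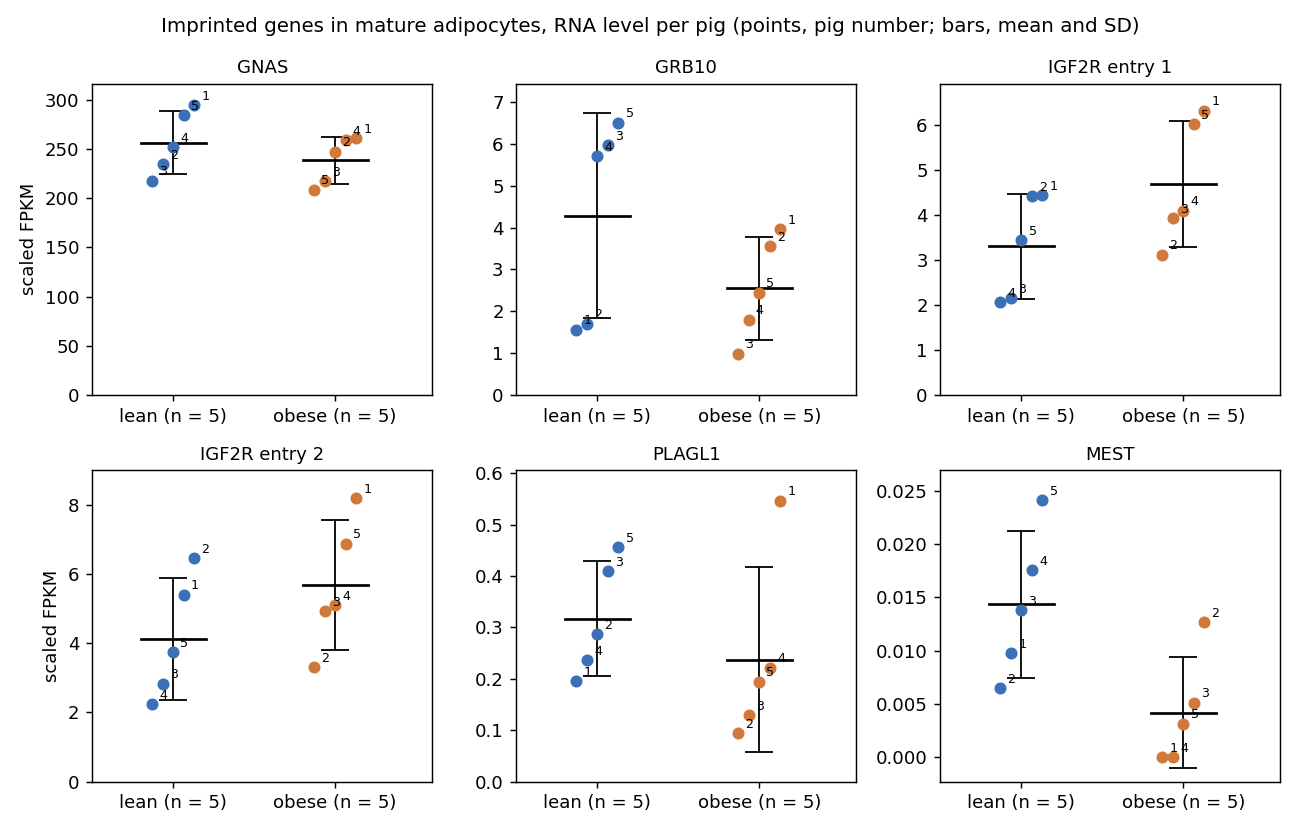
Scaled FPKM per pig for the 6 member entries with values above 0 in most pigs, lean and obese, with pig numbers, means and SD; each panel has its own axis. GNAS lies at 209 to 294 in both groups, GRB10 splits the lean pigs into 1.56 to 1.70 and 5.70 to 6.51, and obese pig 1 stands above the other obese pigs for PLAGL1.

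Genes whose levels followed a member most closely were sought among 4567 or 4568 named genes with a mean of at least 5 FPKM, by the Pearson r of log2(scaled FPKM + 1) over the 10 pigs. For GNAS these were CTSC, a lysosomal protease (r = 0.88), and PTGR2, a prostaglandin reductase (r = 0.87). For GRB10 they were ELL2, a transcription elongation factor (r = 0.98), and the small nucleolar RNA SNORA14 (r = 0.96). For the shorter IGF2R entry they were VPS39, a subunit of the vesicle tethering complex at lysosomes (r = 0.97), and NAPA, which helps to take membrane fusion complexes apart (r = 0.96). For the longer entry they were GYS1, glycogen synthase (r = 0.97), and PPARALPHA, the receptor that drives fatty acid oxidation genes (r = 0.96). These are the top values of a large search over few pigs and describe the order of the pigs only.

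Other imprinted genes and the pathways of GNAS and of the IGF genes gave no call either. The 73 other genes were ones described as imprinted in human, mouse or pig, and their imprinting in these cells was not measured. Of them, 48 had an entry and 23 a mean of at least 1 FPKM. None of these 23 passed the limma test, and 6 (26.1%) had an unadjusted p under 0.05, beside 20.8% of all genes. Their median log2 difference was 0.08, beside 0.00 over all tested genes (-0.00233 before rounding). PON3, a lactonase, had 132 ± 57.5 FPKM in lean and 133 ± 62.6 in obese pigs (limma adjusted p = 0.983). The related PON2 had 107 ± 29.0 and 133 ± 33.6 FPKM (limma adjusted p = 0.430). TFPI2, a protease inhibitor, had 52.1 ± 31.7 in lean and 12.6 ± 8.54 in obese pigs, the widest difference among these 5 genes relative to its SE (log2 -2.01, SE 0.60, limma adjusted p = 0.140). BLCAP had 24.4 ± 8.30 and 35.7 ± 4.57 FPKM (limma adjusted p = 0.168). TRAPPC9, a vesicle trafficking subunit, had 1405 FPKM in obese pig 1 and 8.17 to 16.8 in all other pigs (limma adjusted p = 0.428).

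Of 28 genes of the IGF axis, 12 were tested and 1 (8.33%) had an unadjusted p under 0.05 in limma, beside 20.8% of all genes. Their median log2 difference was -0.02. The ligand IGF1 had 32.6 ± 11.9 FPKM in lean and 25.6 ± 8.60 in obese pigs (limma adjusted p = 0.524). IGFBP7, a secreted binding protein, had 33.6 ± 13.1 and 20.5 ± 8.88 FPKM (limma adjusted p = 0.244). AKT2, the kinase downstream of the insulin receptor, had 195 ± 73.5 and 229 ± 30.8 FPKM (limma adjusted p = 0.535). Of 35 genes of Gs and cAMP signalling, 19 were tested and 6 (31.6%) had an unadjusted limma p under 0.05, beside the same 20.8%. Whether so small a list differs from all genes was not tested. Its median log2 difference was -0.08. GNAI1, an inhibitory G protein subunit, had 55.7 ± 14.4 and 43.7 ± 4.97 FPKM (limma adjusted p = 0.327). PRKAR1A, a regulatory subunit of protein kinase A, had 42.7 ± 6.20 and 36.3 ± 3.57 FPKM (limma adjusted p = 0.324). PDE3B, the phosphodiesterase through which insulin lowers cAMP, had 35.9 ± 3.35 and 36.3 ± 4.76 FPKM (limma adjusted p = 0.961). PRKAR1B, another regulatory subunit of protein kinase A, was below the filter but is named because its groups did not overlap. It had 0.0784 to 0.14916 FPKM in lean and 0.14919 to 0.244 in obese pigs, so they were barely apart at a low level. The share of genes below the filter with non-overlapping groups is not given here.

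**Figure D2:**
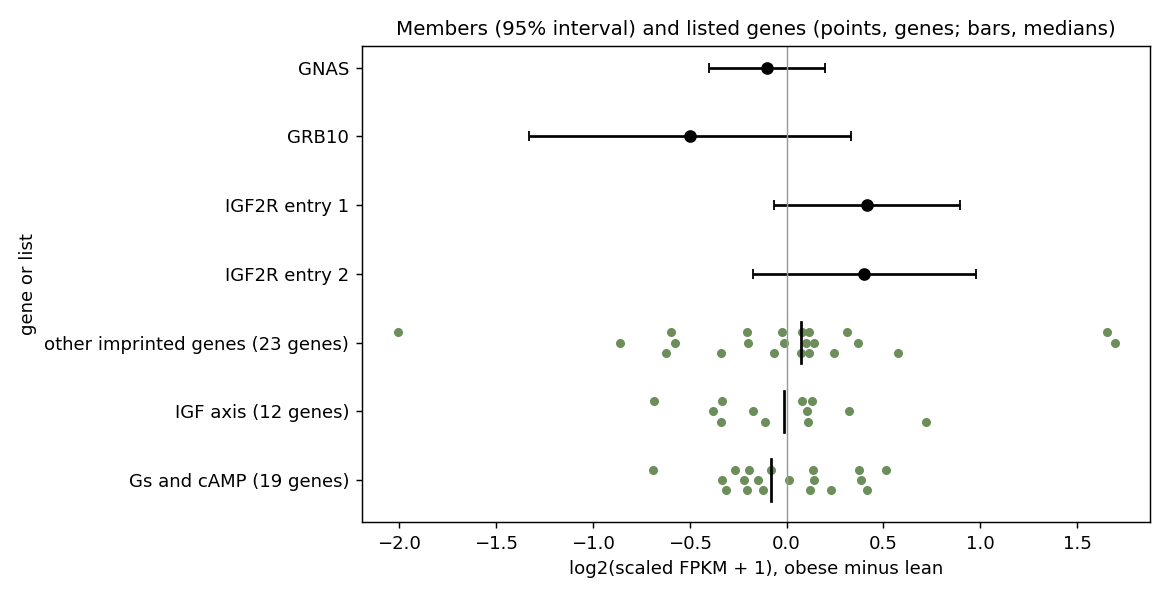
Difference in log2(scaled FPKM + 1), obese minus lean, with 95% intervals for the 4 tested member entries and as points for the genes of each list, with list medians as bars. All 4 member intervals include 0 and the list medians lie between -0.08 and 0.08.

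mDNAcap captures methylated DNA fragments on a methyl-CpG binding protein and counts reads in sliding windows (1000 bases wide, with a step of 100), so a higher normalized count means more captured, methylated DNA. The deposited regions were selected by the authors as differing between these same animals, so their differences are described without a test. Of all gene loci, 28.3% had a deposited region within 50000 bases, and 39.6% of loci of at least 100000 bases had one. Regions were found at GNAS, GRB10 and both IGF2R entries. The 3 member loci of at least 100000 bases all had a region. No region was listed at PLAGL1, MEST, IGF2 or DLK1, which says only that none there passed the authors' selection.

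At GRB10 (Sscrofa10.2, chromosome 9, 150266276 to 150423905) there were 5 regions, all inside the locus, and 4 of them were higher in the obese set. The first, at 150269001 to 150270000, lies 2725 bases from the lower end of the locus. Its obese libraries ranged from 11.6 to 44.5 with a median of 36.9, and its lean libraries from 15.8 to 38.3 with a median of 24.2. Only 1 obese library lay below the lean median. The second, at 150291301 to 150292300, ran from 19.8 to 41.6 (median 30.1) in the obese and from 10.5 to 28.7 (median 22.0) in the lean set, with 6 of 11 obese libraries above every lean one. The third, at 150315601 to 150316800, ran from 21.4 to 41.6 (median 34.6) and from 14.5 to 31.5 (median 23.6), again with 6 obese libraries above the lean range. The fifth, at 150394301 to 150395700, ran from 19.8 to 39.2 (median 32.3) and from 10.5 to 35.9 (median 20.4).

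The fourth GRB10 region, at 150350801 to 150351800, went the other way. Its obese libraries ran from 0 to 15.6 (median 8.25) and its lean libraries from 7.86 to 19.8 (median 14.9), and 10 of 11 obese libraries were below the lean median. The mean normalized counts of the 5 regions in order were 34.8 ± 8.60, 29.6 ± 5.89, 31.4 ± 7.26, 8.50 ± 4.48 and 31.4 ± 5.51 in the obese set (SD, n = 11). The corresponding means in the lean set were 25.6 ± 7.10, 21.2 ± 5.96, 22.0 ± 5.29, 14.1 ± 4.35 and 22.3 ± 7.13 (SD, n = 11). The obese to lean ratios were 1.36, 1.40, 1.43, 0.605 and 1.41.

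At the longer IGF2R entry (chromosome 1, 9166935 to 9271240) there were 4 regions, 2 in the locus and 2 after its upper end. The region at 9207401 to 9208500 was higher in the obese set, from 14.4 to 53.8 (median 24.4) against 10.5 to 28.6 (median 18.97) in the lean set. The region at 9197201 to 9198200 was lower, from 3.26 to 12.3 (median 8.25) against 9.87 to 16.8 (median 14.1), and 9 of 11 obese libraries were below every lean one. These 2 nearby regions thus differed in opposite directions, with ratios of 1.46 and 0.585. Beyond the locus, the regions at 9278501 to 9279500 and 9284801 to 9286400, which start 7261 and 13561 bases past it, had ratios of 0.635 and 0.616. A region before the shorter IGF2R entry (chromosome 1, 9023234 to 9039694), at 9000201 to 9001200, had a ratio of 0.604. It lies 22034 bases from that entry and inside the SLC22A2 locus, and 7 of 11 obese libraries were below every lean one.

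At GNAS (chromosome 17, 66304009 to 66423430) the only region, at 66344001 to 66345000, was lower in the obese set. The obese libraries ran from 6.69 to 14.7 (median 10.5) and the lean libraries from 8.85 to 32.3 (median 15.8), and all 11 obese libraries were below the lean median. The means were 10.1 ± 2.28 and 16.9 ± 6.74 (SD, n = 11 each), a ratio of 0.596. These values rest on about 130 reads in the obese and 217 in the lean libraries in all, so counting error alone is wide in a single library.

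Over the 11 member regions, 5 were higher and 6 lower in the obese set, and in all 11 the lean and obese libraries overlapped. Non-overlap was rare in the whole table as well, at 0.149% of regions. All 5 higher regions had a mean normalized count of at least 20 (23.0 to 30.2), and all 6 lower regions had one under 20 (10.5 to 17.1). The whole table shows a looser tendency of the same kind. In it 29.3% of all regions were higher in the obese set, 64.8% of those with a mean of at least 20 and 12.8% of those under 20. The direction of the member regions thus went with their count level, completely among these 11 and only in part over the whole table. The sequencing depth per library was uneven, with a mean of 0.44 to 4.1 reads per genome bin in the obese and 0.63 to 7.04 in the lean set, and the member regions held 0 to 124 reads in a single library. Its part in the direction was not tested. Both sets drew 5 libraries from one run folder and 6 from the other. The deposited values do not name their library, and values within a run were not compared. The read numbers given here assume that the values stand in the order of the header.

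**Figure D3:**
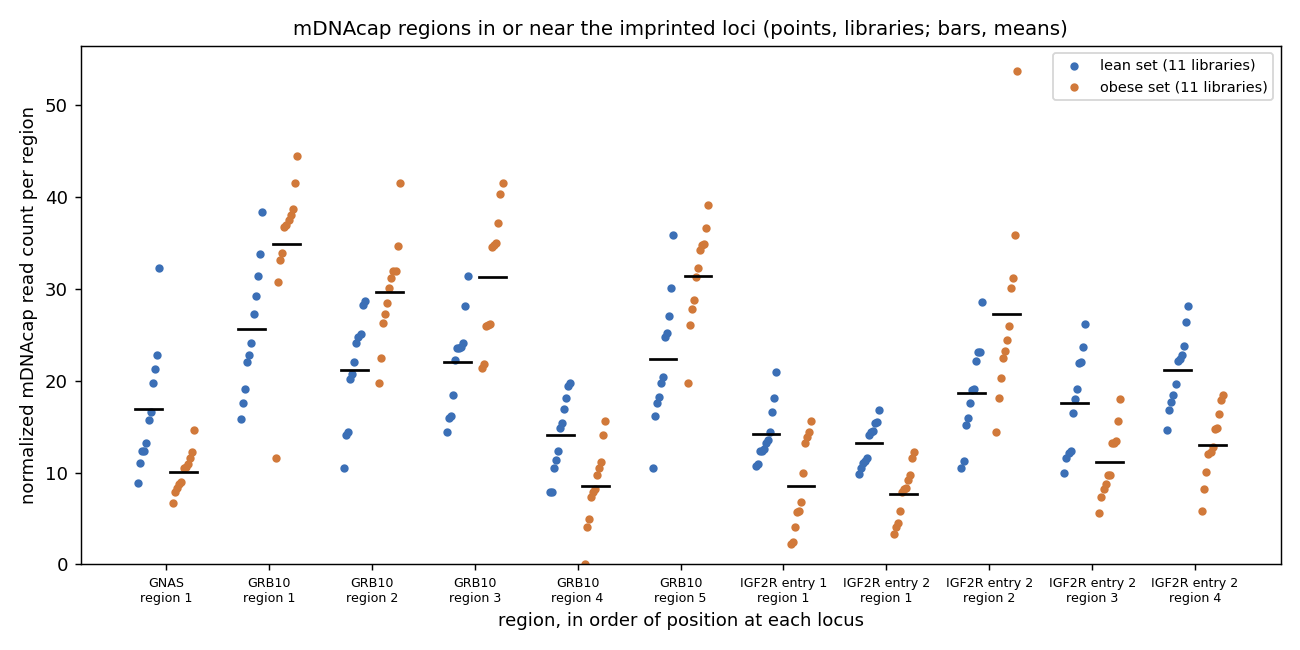
Normalized mDNAcap read count in each of 11 lean and 11 obese libraries (points) and the mean (bars) for the 11 regions, in order of position at each locus. GRB10 regions 1, 2, 3 and 5 and region 2 of the longer IGF2R entry have higher obese means, the other 6 regions have lower obese means, and the libraries overlap in every region.

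RRBS reads methylation after bisulfite conversion in CpG-rich fragments and gives a mean level for each group. The wider table (named 3-3) required values in at least 3 pigs per group and the stricter table (5-5) in at least 5. Each table lists only regions of at least 10 CpGs that differ between the groups, so regions with like levels in lean and obese pigs are not in it. No value per pig was given, so no error can be attached to these means. Of all gene loci, 16% had a region of the wider table within 50000 bases and 5.01% one of the stricter table, and GNAS, GRB10, MEST and both DLK1 entries had such regions.

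GNAS had 3 regions in the wider set and the only one in the stricter set. The region at 66305477 to 66305732, which starts 1468 bases from the lower end of the locus and has 10 CpGs, was at 21.3% in obese and 55.8% in lean pigs. This difference of -34.5 percentage points was the largest among the 12 member regions. The region at 66320005 to 66320210 (10 CpGs) was at 61.0% and 79.3%. Between them, at 66318300 to 66318367 (13 CpGs), the stricter table gave 29.5% and 42.1%. All 3 were thus hypo-methylated in obese pigs. Near the other end of the locus, at 66415269 to 66415449 (10 CpGs), the level was 50.6% in obese and 37.6% in lean pigs. None of the GNAS regions overlapped the mDNAcap region, and the nearest was 23791 bases from it.

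At MEST (chromosome 18, 19327494 to 19342338) a region of 14 CpGs at 19341251 to 19341591 was at 33.8% in obese and 48.4% in lean pigs. It ends 747 bases from the upper end of the locus. At GRB10, 10 CpGs at 150359579 to 150359716 were at 31.4% in obese and 18.1% in lean pigs, and 13 CpGs at 150375919 to 150376601 were at 32.5% and 15.1%. Both GRB10 regions were hyper-methylated in obese pigs. The first lies 7779 bases from the mDNAcap region that was lower in the obese set, and the second 17700 bases from the fifth mDNAcap region, which was higher.

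At DLK1, 3 regions lay before the shorter entry (chromosome 7, 132185689 to 132192271) and 2 inside the longer one (132339547 to 132425665). Those before the entry were hyper-methylated in obese pigs. They were at 78.7% against 63.7% (132140721 to 132140809), 30.9% against 19.8% (132164339 to 132164420) and 34.3% against 22.6% (132164649 to 132164808). Those inside the longer entry were hypo-methylated, at 70.9% against 83.7% (132348056 to 132348122) and 57.0% against 72.0% (132382010 to 132382113). The direction at the DLK1 regions thus went with their place, in few group means without error. The regions at 132164339 and 132164649 lie close together and may not be separate observations. Whether the 2 DLK1 entries are pieces of the same gene was not tested. RNA of both entries was listed at 0 in every library. No RRBS region was listed at IGF2R, PLAGL1 or IGF2.

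No member region had both group means between 40% and 60%, in either table. Among all regions of the wider table, 3.1% did. With at least 1 group mean between 40% and 60%, there were 4 of 11 member regions in the wider table, beside 29.8% of all its regions. These were the GNAS regions at 66305477 (lean) and 66415269 (obese), the MEST region (lean) and the DLK1 region at 132382010 (obese). In the stricter table the single GNAS region did so (lean), beside 27% of its regions. Of these 11 wider-set regions, 6 were higher in obese pigs, beside 61.1% of all regions. The median absolute difference was 14.6 percentage points at the members and 13.8 over the table. In these shares and this median the few member regions were near the whole table, and whether they differ from it was not tested.

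**Figure D4:**
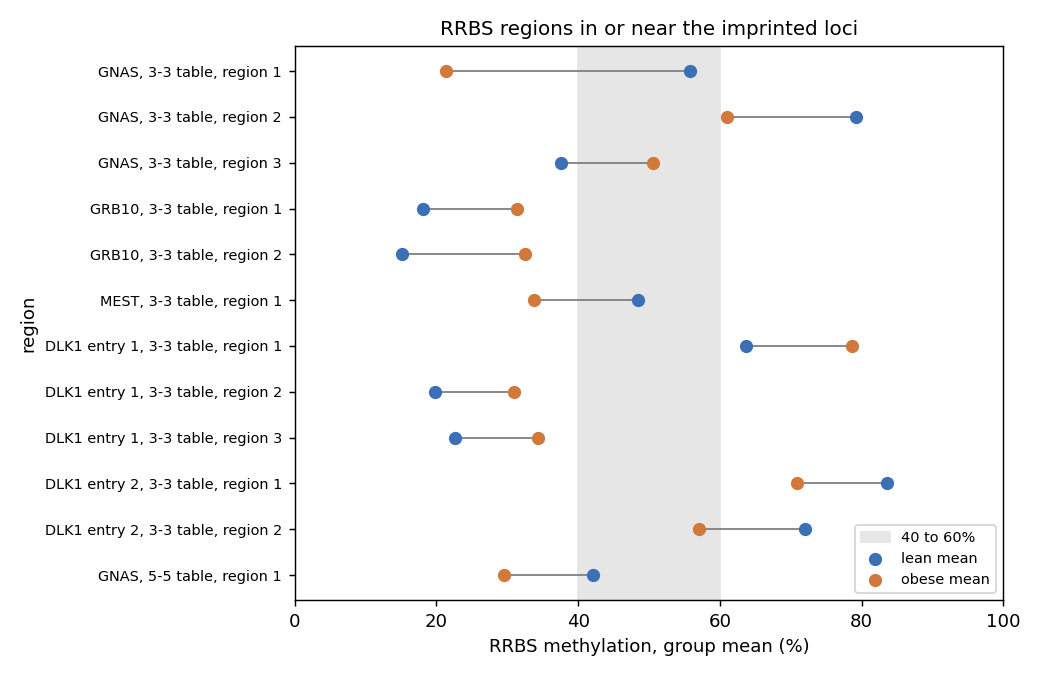
Group mean methylation by RRBS in lean and obese pigs for the 12 member regions, with 40 to 60% shaded. In no region do both points lie in the shaded band, and the widest gap is the first GNAS region, 21.3% in obese and 55.8% in lean pigs.

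The other loci lie on Sscrofa10.2 at chromosome 1, 23687363 to 23707500 (PLAGL1, ENSSSCG00000004127), and for IGF2 (ENSSSCG00000024883) on the scaffold named above. GNAS is ENSSSCG00000007520, GRB10 ENSSSCG00000015631, MEST ENSSSCG00000016554, and the DLK1 entries are ENSSSCG00000027337 and ENSSSCG00000028773. Exon positions on this build were not used here, so regions inside a locus were not split into exons and introns. With the exception of the region in SLC22A2, no member region overlapped the locus of another gene in the tables.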

How the data were processed

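Per the labels and the methods, total RNA depleted of ribosomal RNA was mapped with STAR 2.3.1 to Sscrofa10.2, and the authors deposited FPKM per gene and library from Cufflinks 2.2.0. FPKM were divided by median-of-ratios size factors and the libraries of obese pig 5 were averaged. Of 25285 gene identifiers, 4 with a failed estimate in any library were left out. Genes with a mean of at least 1 were tested with limma 3.58.1 (R 4.3.3, trend) on log2(FPKM + 1), and single genes with two-sided exact permutation tests (scipy, 252 splits). The limma script was tested on simulated data. Fold changes on this scale understate those of low genes. Replicates are separate pigs with accession-order numbers that pair nothing.

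For mDNAcap the authors deposited normalized read counts of each library for regions selected by diffReps 1.55.4, packed without library names. Read numbers were recovered from them with the header's constants. They are approximate and assume that the values stand in the order of the libraries in the header. For RRBS (Bismark 0.10 in the submitters' notes) the authors deposited mean methylation fractions per group, printed here as percent, and the number of CpGs, a score, for regions selected by metilene from CpGs with at least 5 reads. Coverage per region was not given, and counting intervals were not computed. Columns with the authors' own group means, fold changes, differences and p-values were not used, nor was the hotspot list.

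The members and gene lists were chosen with earlier results of these data known. Text names all members, the 2 closest genes per expressed member, and from each list the most abundant genes (5 of the other imprinted genes, 3 of each pathway) plus any called or non-overlapping gene, below the filter too. Alternatives were pseudocount 0.1, other scalings, no filter, each library of obese pig 5, each pig or library left out, locus only, and 35 to 65% for RRBS.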

Additional observations from a re-analysis of the deposited data

Results flagged for a closer look

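Groups of 5 pigs were searched for a pig standing apart from the other 4 by Dixon's ratio (gap over range above 0.71), for the members, the genes named from the lists and the genes closest to a member. Of 53 groups with unequal values, 3 had such a pig, where chance gives about 1 in 20, and all 3 were obese pig 1. For PLAGL1 obese pig 1 had 0.547 FPKM and the other obese pigs 0.0944 to 0.222. For TRAPPC9 it had 1405 FPKM and the others 11.1 to 16.8. For AKT2 it had 176 FPKM, below the others at 231 to 253. The count of 3 in 53 is near the chance share of about 1 in 20. The groups draw on the same pigs, so they are not independent. Why all 3 fell on obese pig 1 was not tested.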

How the results depend on the processing

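No member was called by limma under any of the 17 alternatives to the RNA analysis, and the signs of GNAS (-0.16 to -0.05), GRB10 (-0.72 to -0.31), and the shorter (0.30 to 0.52) and longer (0.25 to 0.55) IGF2R entries were the same in each of them. The lowest adjusted p in limma was 0.175, for the shorter IGF2R entry. The number of all genes called, 1, depended strongly on the samples. It was 0 with FPKM as deposited, 5 with no filter on low values, 10 with the second library of obese pig 5 only, 178 with the libraries of obese pig 5 as separate replicates, which counts 1 pig as 2, and 1 to 165 when leaving out each pig, the highest without lean pig 1. The causes were not tested. Alternatives to the exact permutation tests were chosen after seeing the data. For MEST the exact p was 0.0635 with FPKM as deposited and 0.0159 to 0.0635 without single pigs. For PLAGL1 it was 0.0317 to 0.667 without single pigs, the lowest without obese pig 1. The other entries stayed above 0.05 in all 11 alternatives each.

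The count of higher mDNAcap member regions was 5 of 11 under both other scalings, without any single library, and 5 of 8 inside the loci. Other scalings moved the median log2 difference of all mDNAcap regions from -0.66 to -0.36 and -0.38. The obese to lean ratios rose at every member region. The 5 higher regions thus moved further from 1, with the first GRB10 region going from 1.36 to 1.69 and 1.67. The 6 lower regions moved closer to 1, with the GNAS region going from 0.596 to 0.763 and 0.761. The size of each ratio therefore depends on the scaling. No RRBS region had both means near 50% in either table or inside the loci. With 35 to 65%, chosen for the wider table after seeing the data, 1 of its 11 did, the GNAS region with 50.6% and 37.6%. The share of all regions within 35 to 65% is not given here, so this count has no background to be read against. No paired analysis was possible because replicate numbers were given in accession order and name no pairs.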

Other observations

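Of the 23 other imprinted genes, 6 had an unadjusted limma p under 0.05, beside 20.8% of all genes. TFPI2 and BLCAP, given in the report, were named by rule, and the other 4 are named here after their values were seen. Lower in obese pigs were TFPI2, NDN, a growth suppressor of the MAGE family, with 12.6 ± 1.95 against 8.19 ± 2.33 FPKM (log2 -0.60, limma adjusted p = 0.154), and NNAT, a small membrane proteolipid, with 34.3 ± 13.4 against 18.2 ± 5.95 FPKM (log2 -0.86, limma adjusted p = 0.165). Higher were BLCAP, NAP1L4, a histone chaperone, with 22.0 ± 5.46 against 28.1 ± 2.41 FPKM (log2 0.37, limma adjusted p = 0.233), and NAP1L5, its relative, with 5.54 ± 5.45 against 19.6 ± 11.7 FPKM (log2 1.69, limma adjusted p = 0.167). The lean and obese pigs overlapped for each of these genes, and none passed the adjustment.

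The lists also gave the receptors that could answer IGF ligands. INSR, the insulin receptor, had 13.8 ± 2.26 FPKM in lean and 14.9 ± 2.76 in obese pigs (limma adjusted p = 0.701), while IGF1R, the IGF1 receptor, had 0.337 ± 0.117 and 0.196 ± 0.142 FPKM and was below the filter. In the Gs and cAMP list, ADCY6, an adenylyl cyclase, had 6.35 ± 1.02 and 8.77 ± 0.789 FPKM (log2 0.42, limma adjusted p = 0.113), the lowest adjusted p of that list.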
